A study of Canis lupus familiaris with 51 samples.

Results

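The genes described here are 7 members of the MHC class II antigen presentation pathway: DLA-DRA, DLA-DRB1, DLA-DQA1, DLA-DQB1, DLA-DMA, CD74 and CIITA. On the canine microarray they were read by 19 probes of 43603. The rule took every probe whose name or description on the array is 1 of these genes, also with the human prefix HLA- in place of DLA-. The array's own names gave 11 of the 19 probes and a probe description gave 1. The other 7 probes, which are those of DLA-DRA, CD74 and CIITA, carry an older symbol or a gene number on the array and were joined through the RefSeq gene table. DLA, for dog leukocyte antigen, is the name of the canine major histocompatibility complex.

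The samples were 51 spontaneous cutaneous mast cell tumors (MCTs) of dogs, each hybridized to its own array with a single dye, and each a piece from the central part of the mass. The study set apart 18 reference MCTs, of which 5 were undifferentiated and 13 differentiated, on the agreement of pathologists about histological grade and mitotic index. The other 33 MCTs, called unknown, had their class predicted by the study from expression on these same arrays, and 7 fell into the undifferentiated and 26 into the differentiated class. These classes are those of the study and are not given in the sample labels. Those of the reference tumors came from a list of cases, and those of the 33 unknown tumors were read by sample title from a plot of the study's class prediction, so that a misread point would change the group of a tumor. The case LM0 could be placed among the undifferentiated reference tumors only by elimination, as the last case left without a matching name, so the differences that rest on it are also given without it. The dogs were pets of mixed breed and age, with no shared strain or treatment in the labels. There were 30 females and 19 males, and sex was not available for 2 dogs. Age ran from 3 to 14 years in the 49 dogs with a labelled age. Boxers and Labrador Retrievers, with 9 tumors each, were the most frequent pure breeds, and 14 dogs were crossbred. The arrays lay on 15 slides and were scanned in 9 sessions, and between 59.4% and 74.8% of the spots of an array were well above background.

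MHC class II molecules are pairs of an alpha and a beta chain that carry peptides from engulfed proteins to the surface of antigen presenting cells, where CD4+ T cells read them. The invariant chain CD74 guards the groove of a new molecule on its way to the endosome, DM then helps exchange the last fragment of CD74 for a peptide, and CIITA is the transactivator that switches the set of genes on. Dendritic cells, macrophages and B cells are the usual carriers, and mast cells are known to express class II under some stimuli. A level below is the log2 of the normalized probe intensity. Levels of different probes are not set against each other, since probes bind with different strength.

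The chain and DM probes lie on chromosome 12, between 5139999 and 5522286 in the array's own annotation, whose genome build the files do not name. The CD74 probe spans 61899122 to 61900202 on chromosome 4, and the 3 CIITA probes lie between 34817558 and 34830026 on chromosome 6. The following probes are shown because they were among those with an adjusted p under 0.05 between the classes of the reference tumors.
DLA-DRA probe 3: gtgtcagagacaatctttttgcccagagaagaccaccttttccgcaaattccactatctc
DLA-DMA probe 1: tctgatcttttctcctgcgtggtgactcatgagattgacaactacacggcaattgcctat
CD74 probe 1: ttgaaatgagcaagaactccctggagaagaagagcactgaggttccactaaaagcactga
CIITA probe 2: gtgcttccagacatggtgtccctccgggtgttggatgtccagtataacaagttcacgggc
Probes of a gene are numbered here from the brightest. The CD74 probe covers 1081 bases of the array's coordinates and CIITA probe 2 covers 225, so that each is split over a gap, as a probe across an exon junction is.

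DLA-DQB1 had 5 probes, shown because they did not behave alike. Probes 2 and 3 share 55 of 57 overlapping bases, and the capitals mark the bases in which they differ.
DLA-DQB1 probe 2: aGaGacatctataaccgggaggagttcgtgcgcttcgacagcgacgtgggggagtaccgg
DLA-DQB1 probe 3: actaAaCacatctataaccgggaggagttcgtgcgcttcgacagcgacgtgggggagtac
Probe 2 is nevertheless placed at 5252410 to 5252465, beside DLA-DRB1 probe 3 at 5252502 to 5252561, while the other 4 DLA-DQB1 probes lie between 5309316 and 5311297. DLA-DRB1 probes 1 and 2 lie between 5155327 and 5156694. Class II beta chains are related in sequence, and these 2 neighboring probes lie apart from the other probes of their genes. Which gene DLA-DRB1 probe 3 and DLA-DQB1 probe 2 read is therefore uncertain.
DLA-DQB1 probe 5 was set beside an array probe described as a DLA beta chain variable region, which carries no gene symbol. They match at 44 of 59 overlapping bases, and the capitals again mark the differences.
DLA-DQB1 probe 5: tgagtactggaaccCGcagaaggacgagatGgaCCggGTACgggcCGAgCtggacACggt
beta chain variable-region probe: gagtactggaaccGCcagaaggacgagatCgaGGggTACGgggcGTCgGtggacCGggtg

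The class II genes were measurable in every MCT. Of the 19 probes, 17 were well above background on all 51 arrays, DLA-DQB1 probe 5 on 48 and CIITA probe 3 on 36, and none was saturated. DLA-DRA, the nearly invariant alpha chain of DR, ranged from 12.35 through a median of 16.05 to 17.25, a 29.8-fold spread, which narrowed to 8.69-fold without LM0. Its partner DLA-DRB1, the polymorphic beta chain, ranged from 14.50 through 17.42 to 18.23. DLA-DQA1 and DLA-DQB1, the chains of DQ, ranged from 7.17 through 11.37 to 12.94 and from 11.98 through 15.91 to 17.40. DLA-DMA, the alpha chain of the peptide editor DM, ran from 10.13 through 11.95 to 13.27. The invariant chain CD74 ran from 10.08 through 13.69 to 14.92. The transactivator CIITA ran from 8.21 through 11.30 to 13.45. These values are those of the brightest probe of each gene.

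**Figure D1:**
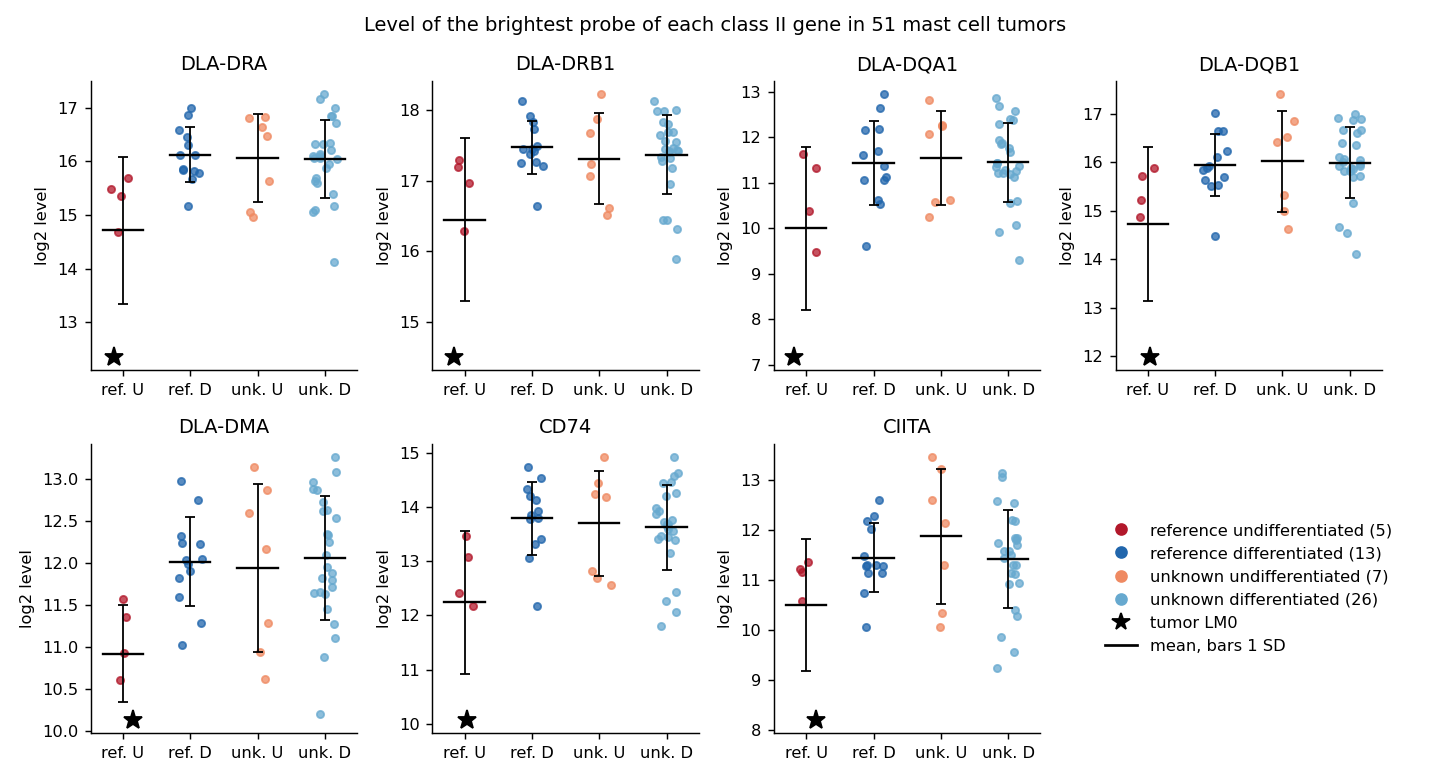
Levels of the brightest probe of each of the 7 genes (log2 normalized intensity, vertical axis) in the 4 groups of MCTs, with 1 point for each tumor, LM0 as a star, and the mean with bars of 1 SD. LM0 lies below every other tumor for each gene, at 12.35 for DLA-DRA, and the remaining points of the 4 groups overlap.

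The low end of the range belonged to the same tumors throughout. LM0, from a Shar-pei, was the lowest of 51 in 17 of the 19 probes and for the brightest probe of all 7 genes. How often LM0 was lowest over all probes of the array was not counted. The member probes vary together, so that these are not 17 separate results, and LM0 was also at or near an end of the range for other gene lists given below. The exceptions were DLA-DQB1 probe 5 and CIITA probe 3. T47, a differentiated Boxer tumor, came next in most probes, with a DLA-DRA level of 14.13 and a CD74 level of 11.81. For DLA-DMA the distance between LM0 and T47 was small, at 10.13 against 10.20, while for DLA-DQB1 it was 11.98 against 14.12. The high end was less uniform, with T113 highest for DLA-DRA at 17.25, T49 for DLA-DRB1 at 18.23, T84 for DLA-DQA1 at 12.94 and T80 for CD74 and CIITA at 14.92 and 13.45.

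In the reference MCTs, which put the histological classes side by side, the class II genes stood lower on average in the undifferentiated tumors, but the groups overlapped and no probe passed the study's threshold. DLA-DRA was 12.35 in LM0, 14.69 in T90, 15.35 in T9, 15.48 in T73 and 15.70 in T57. The 13 differentiated tumors ran from 15.17 through 16.12 to 16.99. All 5 undifferentiated values lay below the differentiated median, and 3 of them lay inside the differentiated range. The difference was -1.41 ± 0.41 (SE) on the log2 scale, with a limma adjusted p of 0.0429. DLA-DRA probe 3 gave -1.50, with an adjusted p of 0.0375.

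CD74 was 10.08 in LM0, 12.17 in T9, 12.41 in T90, 13.07 in T73 and 13.47 in T57. The differentiated reference tumors ran from 12.17 through 13.86 to 14.73. LM0 lay below that range, T9 lay at its lower end and the other 3 inside it. The CD74 difference was -1.55 ± 0.44 (SE), with an adjusted p of 0.0402. DLA-DMA was 10.13 in LM0, 10.60 in T9, 10.93 in T90, 11.35 in T73 and 11.58 in T57, against 11.02 through 12.04 to 12.98 in the differentiated tumors. Here 3 of the 5 undifferentiated tumors lay below every differentiated reference tumor. The DLA-DMA difference was -1.10 ± 0.28 (SE, adjusted p = 0.0219) by probe 1 and -1.12 ± 0.29 (SE, adjusted p = 0.0237) by probe 2.

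The CIITA probes all gave negative differences, with a limma adjusted p under 0.05 by probe 2 only. Probe 2 was 8.51 in LM0, 9.58 in T9, 10.30 in T73, 10.46 in T90 and 10.47 in T57, and the differentiated tumors ran from 10.26 through 10.97 to 11.51. The difference was -1.05 ± 0.26 (SE, adjusted p = 0.0198), the lowest adjusted p among the 19 probes. Probe 1 of CIITA was 8.21 in LM0 and between 10.58 and 11.36 in the other 4 tumors, against 10.06 through 11.30 to 12.60, and gave -0.94 ± 0.45 (SE, adjusted p = 0.213). Probe 3, the dimmest, gave -0.76 (adjusted p = 0.201).

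The polymorphic chains differed in the same direction, with adjusted p above 0.05. DLA-DRB1 differed by -1.03 ± 0.34 (SE, adjusted p = 0.0689), DLA-DQA1 by -1.43 ± 0.60 (SE, adjusted p = 0.155) and DLA-DQB1 by -1.20 ± 0.49 (SE, adjusted p = 0.141), each by its brightest probe. Without LM0 these became -0.54, -0.72 and -0.51. T9, a Cocker Spaniel tumor, was low for DLA-DQA1 at 9.48, while T57 at 11.64 lay above the differentiated median of 11.37.

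By the study's threshold, an adjusted p under 0.01 with a fold of at least 2, 0 of the 19 probes were called, where 1.85% of all probes were. At an adjusted p under 0.05 with no fold limit, 6 of 19 were lower and 0 higher, where 8.07% of all probes were called in either direction. These 6 were 2 probes of DLA-DRA, both probes of DLA-DMA, the CD74 probe and CIITA probe 2. At an unadjusted p under 0.05 there were 16, where 23.5% of all probes were. All 19 differences were negative, with a median of -1.23, while the median over all 43603 probes was 0.035 and 45.5% were negative. The probes read the same few genes in the same 18 tumors, so that their common direction is not 19 separate results. The differences were smaller without LM0. Without it the median of the 19 probes was -0.72, DLA-DRA gave -0.82 (adjusted p = 0.0923), DLA-DMA gave -0.90 and -0.88 by its 2 probes, CIITA probe 1 gave -0.36, CD74 gave -1.0 (adjusted p = 0.12), and only CIITA probe 2 was still under 0.05, at -0.71 (adjusted p = 0.0449). Without T9, too, 1 probe was under 0.05, while there were 3 without T90 and 11 without T57 or without T73. With slide as a fixed block the median was -0.43 and the lowest limma adjusted p was 0.443. In that fit T9, T57 and LM0 had no other reference tumor on their slide, so the class difference rested on T73 and T90. With slide as a random block, which keeps the comparison between slides, the median was -1.16, the lowest adjusted p was 0.0246 and 5 probes were under 0.05. With scan session as a fixed block the median was -0.65 and the lowest limma adjusted p was 0.16. There LM0 had no other reference tumor in its session. In bulk tumor tissue, fewer cells carrying class II and less class II RNA in each of them cannot be told apart.

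In the unknown MCTs no class II probe differed beyond its error. In the 7 predicted undifferentiated tumors DLA-DRA was 14.97 in T114, 15.05 in T77, 15.63 in T104, 16.47 in T132, 16.63 in T115, 16.81 in T49 and 16.82 in T80. The 26 predicted differentiated tumors ran from 14.13 through 16.08 to 17.25. Thus 3 of the 7 lay below the differentiated median and 4 above it. The DLA-DRA difference was 0.014, with a 95% confidence interval from -0.61 to 0.64. CD74 showed the same arrangement, with 12.57 in T77, 12.69 in T114 and 12.81 in T104, then 14.19 in T132, 14.24 in T115, 14.45 in T49 and 14.92 in T80. Its differentiated tumors ran from 11.81 through 13.69 to 14.92, and the difference was 0.067 (95% interval -0.63 to 0.76). CIITA probe 1 ran from 10.06 in T77 to 13.45 in T80 and differed by 0.46 (95% interval -0.43 to 1.35). Over the 19 probes the differences lay between -0.22 and 0.70, with a median of 0.034. No probe was called (0 of 19, against 1.0% of all probes), 0 had an unadjusted p under 0.05 where 19.4% of all did, and the lowest limma adjusted p was 0.608.

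**Figure D2:**
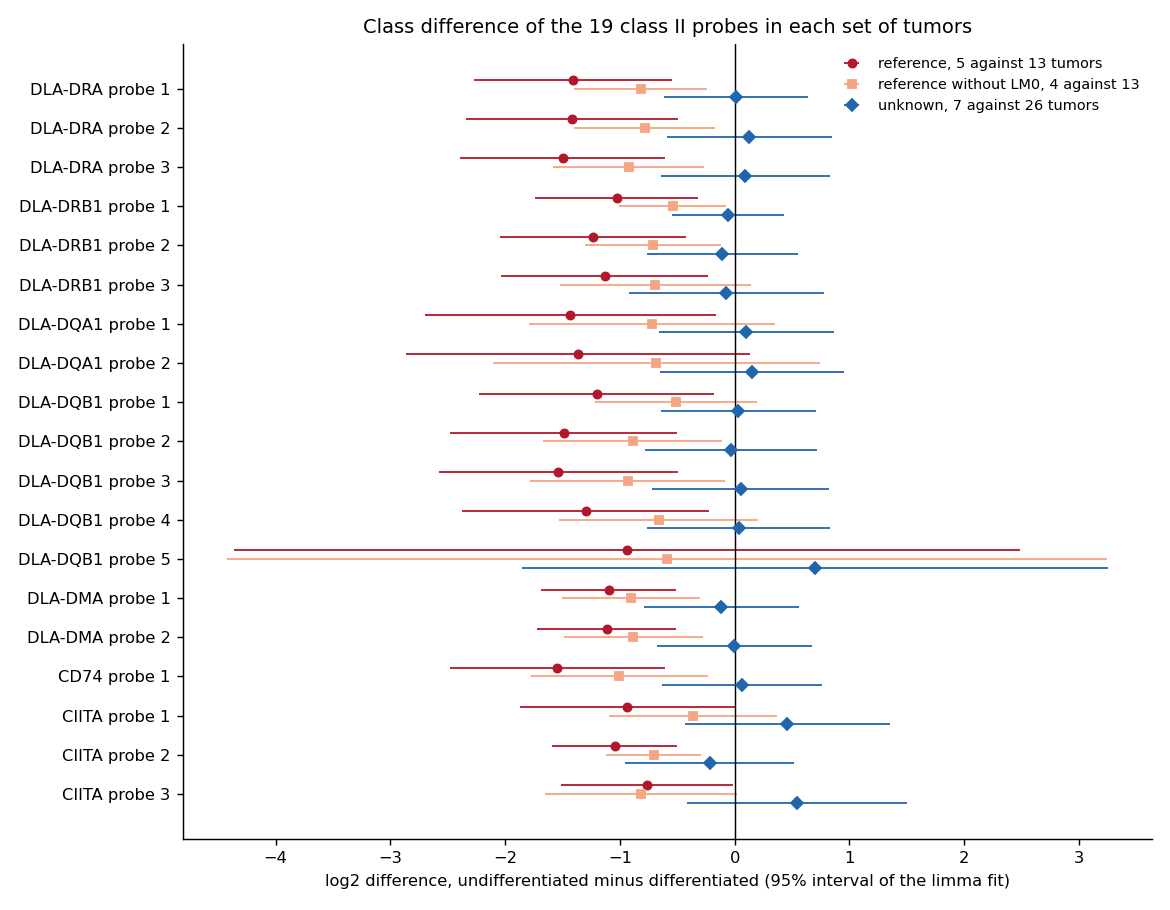
Difference between undifferentiated and differentiated MCTs (log2, horizontal axis) with its 95% confidence interval for each of the 19 probes, in the reference tumors, in the reference tumors without LM0 and in the unknown tumors. The reference differences centre on -1.23 and the unknown ones on 0.034, and those of the reference tumors without LM0 on -0.72.

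Whether the class difference itself differed between the sets was tested as an interaction. For DLA-DRA the reference difference was lower than the unknown one by -1.42 on the log2 scale (95% interval -2.45 to -0.40, adjusted p = 0.217). For CD74 the contrast was -1.61 (95% interval -2.74 to -0.48, adjusted p = 0.204), the lowest adjusted p of the 19. None was called (0 of 19, against 0.00917% of all probes), although 15 had an unadjusted p under 0.05, as 13.7% of all probes did. Without LM0 the median contrast moved from -1.40 to -0.83 and 0 probes had an unadjusted p under 0.05. Over all 51 tumors, which hold both sets, the class differences had a median of -0.53, and DLA-DRA gave -0.57 (limma adjusted p = 0.153). By limma 0 of 19 probes were called, against 2.41% of all, and by an ordinary unpaired t-test also 0 of 19. At an unadjusted limma p under 0.05 there were 7, where 26.2% of all probes were. Without LM0 that median was -0.27, DLA-DRA gave -0.29 and 0 probes had an unadjusted p under 0.05. Of 10 slides that held both classes, DLA-DRA was lower in the undifferentiated tumors on 7, with a median within-slide difference of -0.64 and a range from -4.64 to 1.53. Of 7 scan sessions with both classes it was lower in 6, with a median of -0.47.

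The members varied together from tumor to tumor. Over the 51 MCTs, Pearson's r with DLA-DRA was 0.97 for DLA-DRB1, 0.95 for CD74, 0.94 for DLA-DQB1, 0.91 for DLA-DQA1, 0.91 for CIITA and 0.89 for DLA-DMA. Spearman's rho was 0.94, 0.93, 0.89, 0.87, 0.89 and 0.91 in the same order. Each had a two-sided permutation p of 1e-05, the smallest that 1e+05 resamples can give, and 1.9e-05 after Benjamini-Hochberg adjustment over the 19 relations of this family. LM0 and T47 were the tumors farthest from the DLA-DRA median, and without them r was still between 0.85 for DLA-DQA1 and 0.94 for DLA-DRB1. Within the 39 differentiated tumors r ran from 0.88 for DLA-DQA1 to 0.96 for DLA-DRB1, and within the 12 undifferentiated ones from 0.86 for DLA-DMA to 0.98 for DLA-DQB1. With slide means removed it ran from 0.90 for DLA-DQA1 to 0.97 for DLA-DRB1.

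Probes of a gene did not always follow each other. The 3 DLA-DRA probes followed each other closely, with r of 0.99 for probe 2 and 0.98 for probe 3 against probe 1, and the DLA-DMA probes correlated with each other at 0.99. DLA-DQB1 probes 1 to 4 correlated with DLA-DRA at 0.92 to 0.94, but probe 5 only at 0.34. CIITA probe 1 stood at 0.91, probe 3 at 0.69 and probe 2 at 0.46, or 0.30 for probe 2 without LM0. CIITA probe 2, which gave the lowest p-value of the class comparison, was therefore the CIITA probe that followed the class II chains least.

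**Figure D3:**
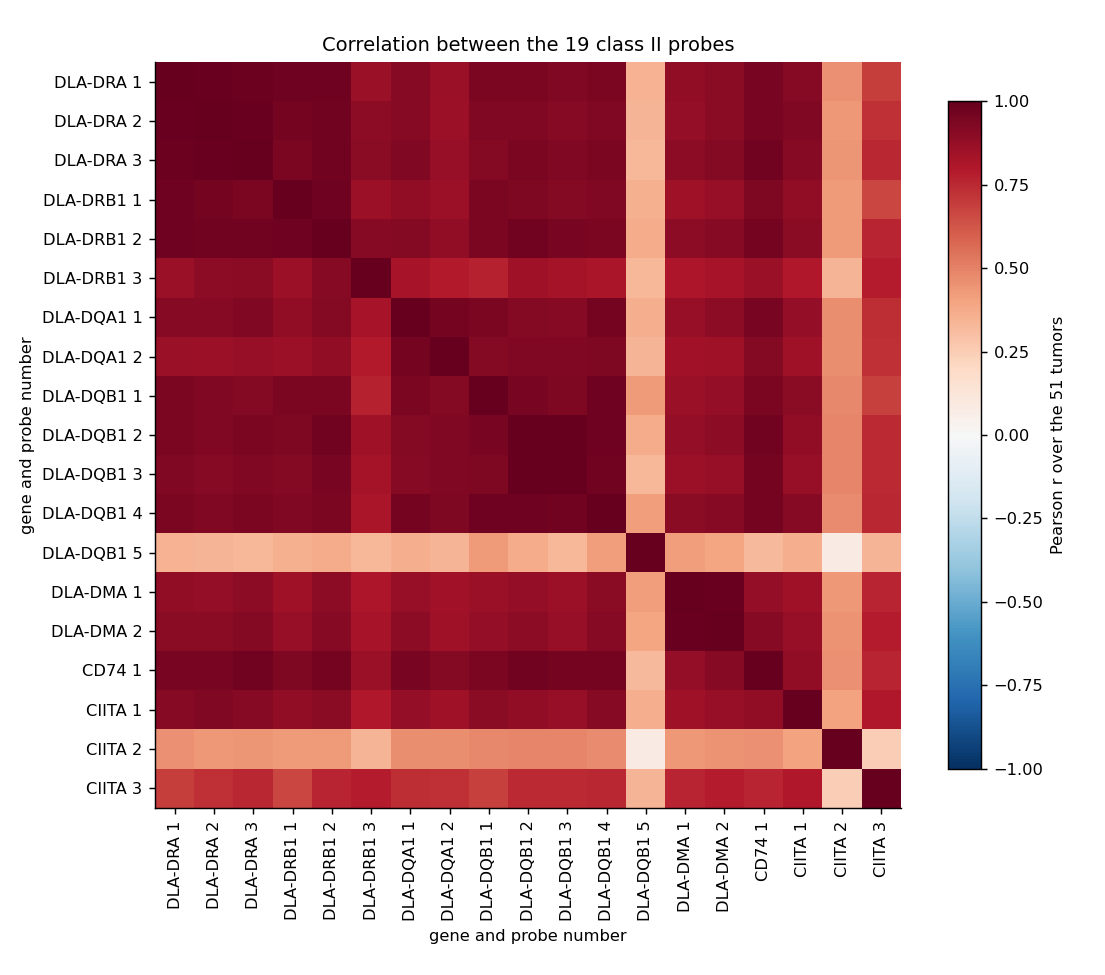
Pearson's r between every pair of the 19 probes over the 51 tumors, as a color scale. The probes of the chains, DLA-DMA, CD74 and CIITA probe 1 form a block of high r, and DLA-DQB1 probe 5 (0.34 with DLA-DRA probe 1) and CIITA probe 2 (0.46) stand out of it.

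Among 12456 other named genes, the 3 whose brightest probe followed DLA-DRA most closely were the remaining class II genes of the locus. DLA-DMB, the beta chain of DM, had r = 0.95 over the 51 tumors, and DLA-DOA and DLA-DOB, the chains of the DM modulator DO, had 0.90 and 0.88. Next came FABP7, a fatty acid binding protein (0.81), the eosinophil-attracting chemokine CCL24 (0.80), the Toll-like receptor chaperone UNC93B1 (0.79), lysozyme LYZ (0.76), the aspartic protease NAPSA (0.76), the transcription factor IRF5 (0.76) and the bactericidal protein BPI (0.75). The median r over all those genes was -0.020, and 4 genes were above 0.8. Without LM0 and T47 the 3 class II genes were still the closest, IRF5 came next at 0.80, and the other 6 lay between 0.66 and 0.75, at ranks from 8 for CCL24 and 10 for FABP7 to 30 for NAPSA. DLA-DMB, DLA-DOA and DLA-DOB were also at their lowest of the 51 tumors in LM0, at 8.71, 5.24 and 3.86, against medians of 11.61, 8.20 and 7.42.

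The other genes of the pathway were described from lists. Of 16 measured genes that load or regulate class II, 0 were called in either direction in the reference, the unknown or the combined comparison by limma. At an unadjusted p under 0.05 there were 8, 2 and 3 of them, beside 23.5%, 19.4% and 26.2% of all probes. Their median difference was -0.21 in the reference tumors, with 10 of 16 negative, and 0.012 in the unknown tumors, beside 0.035 and -0.042 over all probes. In the reference tumors 45.5% of all probes were negative. Over all tumors DLA-DOA gave -0.53 (adjusted p = 0.283), DLA-DOB -0.70 (adjusted p = 0.201) and NFYA, a subunit of the NF-Y factor that binds class II promoters, 0.72 (adjusted p = 0.00651, short of the fold of 2). NFYA was at its highest of the 51 tumors in LM0, at 8.70 against a median of 6.75, and its difference without LM0 was 0.60 (adjusted p = 0.0274). DLA-DOA and DLA-DOB gave -0.30 and -0.45 without LM0. Of 10 measured genes of the interferon gamma axis, the main inducer of CIITA, 0 were called in the same 3 comparisons, with 3, 2 and 3 at an unadjusted p under 0.05. Over all tumors the receptor chains IFNGR1 and IFNGR2 gave 0.50 (adjusted p = 0.0225) and 0.39 (adjusted p = 0.112), and the interferon target GBP1 gave -0.34 (adjusted p = 0.566). Of 15 measured class I presentation genes 0 were called, with 8, 6 and 12 at an unadjusted p under 0.05. Without LM0 the 12 became 8. The class I heavy chains DLA-12 and DLA-79 gave -0.63 (adjusted p = 0.0063) and -0.92 (adjusted p = 0.0408) over all tumors, or -0.47 (adjusted p = 0.0298) and -0.81 (adjusted p = 0.0968) without LM0, which was the lowest of the 51 tumors for DLA-12, and the peptide trimming enzyme ERAP2, well above background on 10 arrays only, gave -0.85 (adjusted p = 0.0634). Of 6 measured costimulation genes 1 was called, the PD-1 ligand gene PDCD1LG2, lower in undifferentiated tumors by -1.13 (adjusted p = 2.4e-04) over all tumors. CD83, a marker of mature dendritic cells, gave -0.62 (adjusted p = 0.0894), and ICOSLG, above background on 2 arrays, gave 0.51 (adjusted p = 0.246). Without LM0 PDCD1LG2 gave -1.14 and was still called, while CD83 gave -0.42 and ICOSLG 0.24.

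DLA-DRA was also set beside marker lists of the cell types a skin tumor biopsy can hold, each list taken as its mean standardized level. The relation was closest for dendritic cell markers (r = 0.81, rho = 0.80, permutation p = 1e-05, adjusted p = 1.9e-05), of which 6 of 11 were measured. T cell markers followed at r = 0.62 (rho = 0.54), eosinophil markers, of which 2 of 5 were measured, at 0.54 (rho = 0.46), B cell markers at 0.47 (rho = 0.45) and macrophage markers at 0.43 (rho = 0.51), the last with a permutation p of 0.00175 and an adjusted p of 0.00222. The pathway lists gave r = 0.67 (rho = 0.69) for the other genes that load or regulate class II and 0.66 (rho = 0.60) for class I. They gave 0.56 (rho = 0.61) for the interferon gamma axis and 0.55 (rho = 0.54) for costimulation. Mast cell markers showed no relation that passed the test (r = 0.13, rho = 0.0034, adjusted p = 0.418), nor did those of fibroblasts (r = 0.19, rho = 0.24, adjusted p = 0.215), keratinocytes (r = -0.12, rho = -0.19, adjusted p = 0.434) or endothelium (r = -0.059, rho = 0.17, adjusted p = 0.686). Without LM0 and T47, r was 0.80 for dendritic cell, 0.53 for T cell, 0.42 for eosinophil, 0.51 for B cell and 0.53 for macrophage markers. The lists and DLA-DRA were read in the same RNA, and the part of each cell type in the class II levels was not tested.

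**Figure D4:**
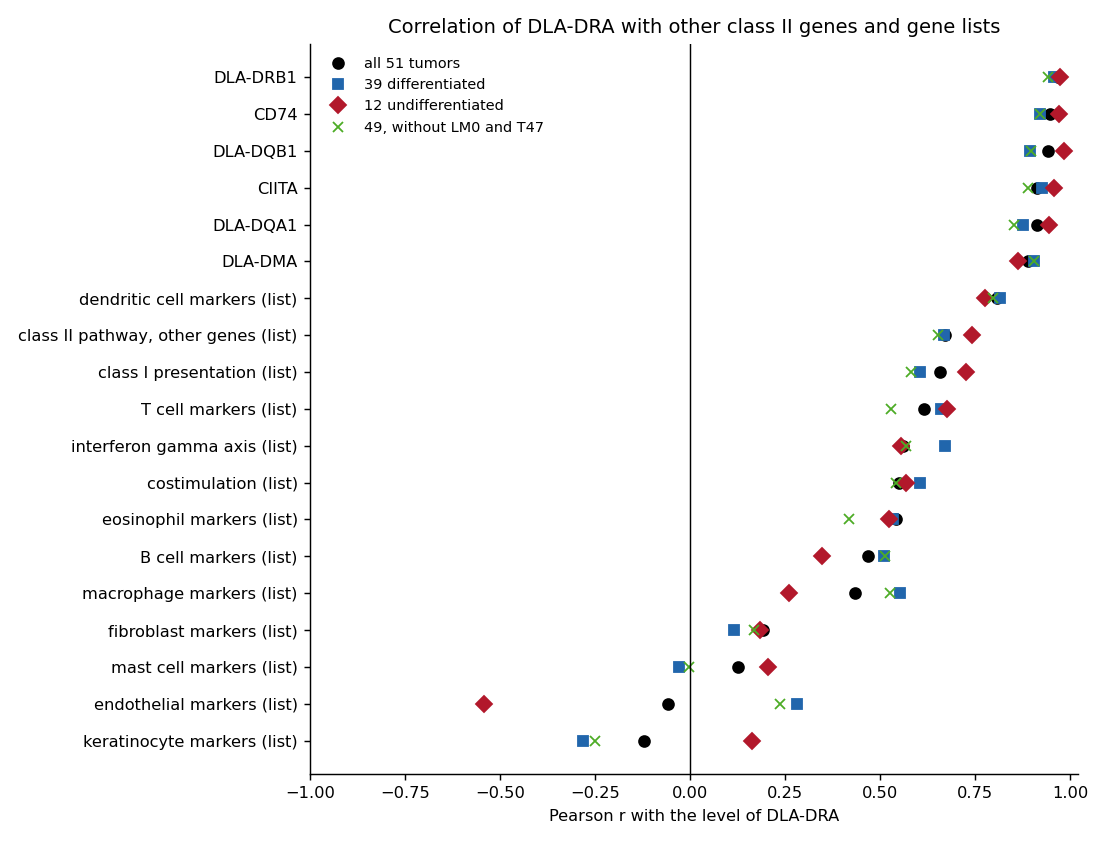
Pearson's r of DLA-DRA with the 6 other members and with the 13 gene lists over the 51 tumors (horizontal axis). The members lie between 0.89 and 0.97, dendritic cell markers are the highest marker list at 0.81, and mast cell markers lie at 0.13.

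These lists moved with the class II genes in part. The mean level of the 6 dendritic cell markers ran from 4.18 through 4.97 to 6.04 in the undifferentiated reference tumors and from 5.06 through 5.75 to 6.64 in the differentiated ones. Of its markers, CCR7 was well above background on 1 array and CLEC9A on 18. In the unknown set the mean ran from 4.01 through 5.72 to 6.40 and from 4.78 through 5.81 to 7.17. CLEC10A, a lectin of dendritic cells and macrophages, was lower in undifferentiated tumors by -1.14 over all 51 (adjusted p = 0.00478). LM0 was the lowest of the 51 for it, and without LM0 it gave -0.86 and was no longer called (adjusted p = 0.0231). Of the 12 macrophage markers, the receptor CSF1R fell by 1.92 in the reference comparison (adjusted p = 0.00626), and without LM0 it gave -1.83 and no longer passed (adjusted p = 0.022). It gave -0.30 in the unknown tumors (adjusted p = 0.702) and -0.95 over all tumors (adjusted p = 0.0128). Over all tumors the complement gene C1QA was lower by -1.03 (adjusted p = 0.00687) and the endotoxin coreceptor CD14 was higher by 1.28 (adjusted p = 1.5e-04). In the unknown tumors CD14 was higher by 1.70 (adjusted p = 3.4e-04). Of the 7 measured T cell markers, 5 had a negative difference over all tumors, as did 52.2% of all probes. The median of the 7 was -0.13 and became 0.068 without LM0. Only CD4 was called over all tumors, higher by 1.1 (limma adjusted p = 0.00107). The granule proteoglycan SRGN, of the mast cell list, was higher by 1.12 in the reference tumors (limma adjusted p = 0.0031). In the unknown tumors it gave 0.22 (limma adjusted p = 0.734). Of the 5 measured mast cell markers, 1 was negative in the reference tumors, 4 in the unknown tumors and 4 over all tumors. Of all probes 45.5%, 56.8% and 52.2% were negative in the same order, so that counts over 5 genes say little. The median differences of the 5 markers were 0.28, -0.58 and -0.32, beside 0.035, -0.042 and -0.011 over all probes. C1QA, CD14 and CD4 over all tumors and SRGN in the reference tumors were also called without LM0. The 5 measured mast cell markers, among them KIT, CMA1, MS4A2 and FCER1A, were well above background on all 51 arrays, with mean levels from 13.67 to 16.57.

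In LM0 the mean level of the T cell markers was the lowest of the 51 tumors, at 5.57 against a median of 7.60. CD4 of that list went the other way, at 6.72 against a median of 6.18, rank 42 from the lowest. The mean levels of dendritic cell, eosinophil and class I genes were next to lowest. By mean level its macrophage markers were sixth from the top of 51, at 11.53 against a median of 10.64. The members of that list differed in LM0, where CSF1R ranked 2 from the lowest, C1QA 35 and CD14 45. As the mean standardized level used above, the list stood at 0.33 in LM0, against 1.37 in T61 and 1.13 in T113. Its endothelial markers were the highest, at 9.29 against 7.85, with 2 of the 4 well above background on most arrays. Its mast cell markers stood at 15.12 against 15.59. The part of these in its class II levels was not tested.

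DLA-DQB1 probe 5 was at background in 3 Boxers. It was well above background in 48 tumors, and the 3 in which it was not were all Boxers: T87 at 2.05, T88 at 2.14 and T12 at 2.71. The other 6 Boxers were at 9.31 in T112, 11.90 in T47, 12.04 in T114, 13.79 in T130, 14.17 in T115 and 14.41 in T84. The 9 Labrador Retrievers ran from 13.75 through 14.59 to 15.86, and the 33 other tumors from 8.63 through 14.15 to 15.67. The remaining DLA-DQB1 probes were bright in the 3 Boxers. T87, T88 and T12 gave 15.22, 15.21 and 13.34 by probe 2 and 14.49, 14.38 and 12.25 by probe 4. The fitted difference between Boxers and Labrador Retrievers for DLA-DQB1 probe 5, with class as a covariate, was -5.50 ± 1.69 (SE, 95% interval -9.08 to -1.92). It did not pass over all probes (unadjusted p = 0.00482, adjusted p = 0.52), and a mean over values at background depends on how background is handled. It was -3.97 with another background correction, and -6.59 in the differentiated tumors alone.

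The beta chain variable-region probe shown above was also not well above background in T87, T88 and T12, at 3.17, 2.52 and 1.90. It was above background in 6 of 9 Boxers, 9 of 9 Labrador Retrievers and 30 of the 33 others. A further variable-region probe on the array was bright in these Boxers, at 13.20, 13.22 and 11.28. Another beta chain probe, well above background in 26 of 51 tumors, was at 5.46 in T87, 5.29 in T88 and 4.46 in T12. In T12 it was not well above background. The 2 probes of the alignment share sequence, so that they are not independent measurements. Class II beta chains are known for differing in sequence between dogs, and a 60-base probe can read different alleles unequally. Allele sequence was not measured here, and its part in these values was not tested.

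**Figure D5:**
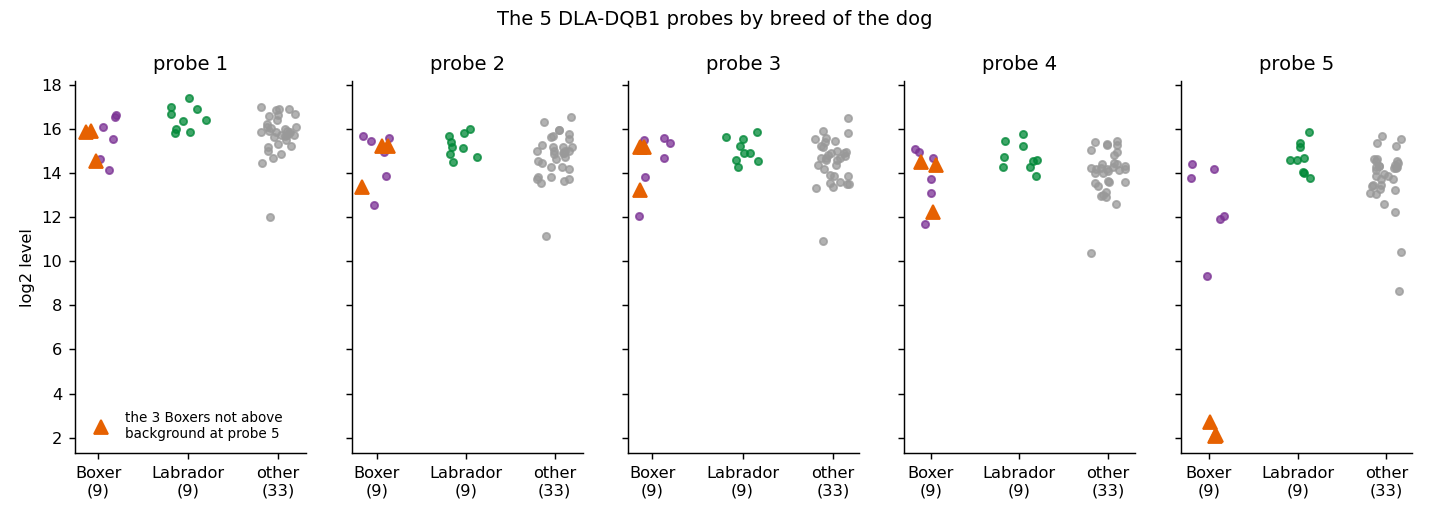
Levels of the 5 DLA-DQB1 probes (log2 normalized intensity, vertical axis) in 9 Boxers, 9 Labrador Retrievers and 33 other MCTs, with 1 point for each tumor. Probe 5 has 3 points between 2.05 and 2.71, all Boxers, and none of the other 4 probes falls below background in any tumor.

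T87 and T88 were also alike over the whole array. Over 22793 probes their r of 0.990 was the second highest of 1275 pairs of tumors, whose median was 0.947, and both are labelled as female Boxers of 8 years and lay on the same slide. The closest pair was T106 and T107, both female Labrador Retrievers of 7 years, also together on a slide. The labels do not say whether either pair came from the same dog, while the methods count 51 dogs.

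For the other probes, Boxers and Labrador Retrievers overlapped. DLA-DRA ran from 14.13 through 16.09 to 16.87 in Boxers and from 15.39 through 16.22 to 16.85 in Labrador Retrievers. CD74 ran from 11.81 through 14.13 to 14.73 and from 13.07 through 13.92 to 14.92. In this comparison 0 of 19 probes were called, against 0.0459% of all, 2 had an unadjusted p under 0.05, as did 5.65% of all, and the median difference was -0.50. Between male and female dogs, 0 of 19 probes were called, against 0.0275% of all, and the lowest adjusted p was 0.888. DLA-DRA ran from 12.35 through 16.13 to 17.17 in 19 males and from 14.13 through 15.86 to 17.25 in 30 females. The median difference over the 19 probes was 0.046, with class as a covariate, and 0 had an unadjusted p under 0.05, against 4.38% of all probes.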

How the data were processed

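One Cy3-labelled RNA per tumor was hybridized to an Agilent Canine V2 4x44k array. The authors extracted spot intensity with Feature Extraction and subtracted background, and these scanner intensities were deposited per array. The authors' quantile-normalized table was deposited too, with medians of 117.9 to 176.7 on a linear intensity scale, and serves as an alternative. Here the processed intensity was quantile-normalized over the 51 arrays and taken to log2, control spots were left out, spots flagged as outliers themselves (2 to 35 on an array) were treated as missing, and the mean was taken over repeated spots. Leaving such flags to the spot was decided after the data were seen. Flags of the background ring (709 to 3286 per array) covered 2.16% of spots below level 8 and 27.9% above level 16, and on 100% of spots the background used was the fitted detrend surface, not that ring. Removing those spots as well is an alternative added after seeing the data.

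Each comparison was a limma fit (version 3.58.1, R 4.3.3) over all 43603 probes with Benjamini-Hochberg adjustment, and a call needed an adjusted p under 0.01 together with a 2-fold difference. Relations across tumors used permutation with 1e+05 resamples. The members, gene lists and tests were chosen with earlier results of these data known. The text names all member probes, list genes that were called, the 3 genes of each pathway list with the largest difference over all tumors, and the 10 named genes most correlated with DLA-DRA. On simulated data with 200 changed probes, the reference comparison called 119 at a log2 change of 1.5 and 183 at 3. For the unknown tumors these were 162 and 190, and for all tumors 183 and 198.

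Alternatives were the authors' table, scaling to the 75th percentile, normexp background correction with an offset of 50, and keeping outlier-flagged spots. Others were a filter on probes well above background on at least 5 arrays, slide as a fixed or random block, and scan session as a fixed block. The rest were sex or age as a covariate, an unpaired t-test, and leaving out each undifferentiated reference tumor. That t-test used pooled variance and Benjamini-Hochberg adjustment. The study used the two-class unpaired test of the program SAM, which was not rerun here. Leaving out LM0 for the list genes was added after seeing the data. The number of arrays limits the precision, and p-values cover the spread between tumors.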

Additional observations from a re-analysis of the deposited data

Results flagged for a closer look

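Within groups of 4 to 10 tumors, a tumor far from the rest was looked for in each of the 19 probes, and chance alone marks about 1 group in 20. The probes read the same tumors and vary together, so that counts over the 19 are not separate results and cannot be held against that rate. Among the 5 undifferentiated reference tumors 5 of 19 probes had a tumor far from the rest. LM0 was it at 11.35 for DLA-DRA probe 2, 13.03 for DLA-DRB1 probe 2, 11.98 for DLA-DQB1 probe 1 and 8.21 for CIITA probe 1. T9 was it at 2.75 for CIITA probe 3, but T9, T90 and LM0 were not well above background there, so that nothing is read from it. Among the 9 Labrador Retriever tumors it was 1 of 19 probes, with T80 at 6.41 for CIITA probe 3. Among the 7 predicted undifferentiated tumors and the 9 Boxers it was 0 of 19.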

How the results depend on the processing

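No member probe was called at the study's threshold in any of the 6 comparisons under any of the alternatives run. In the reference tumors, 6 member probes had an adjusted p under 0.05 with no fold limit, 1 without LM0, and from 1 to 11 when each undifferentiated tumor was left out in turn. There were 3 with 75th percentile scaling, 3 with sex and 3 with age as a covariate, and 3 by the t-test. With the filter on dim probes there were 10, and with slide as a random block 5. With slide or scan session as a fixed block there were 0. Of the undifferentiated tumors, only T73 and T90 shared a slide with other reference tumors. No paired analysis was possible because each tumor belongs to a single class and the labels link no tumor of one class to a tumor of the other. Counts over all probes moved more: 805 in the reference tumors became 416 with normexp, 345 with scan session and 54 with slide as a fixed block, but 880 with slide as a random block. The 437 in the unknown tumors became 219 with normexp, 248 with age as a covariate, 170 with scan session, 85 with slide as a fixed and 425 with slide as a random block. Further on, slide and scan session stand for fixed blocks. The 1049 over all tumors became 423 with normexp. The 20 between breeds became 13 with normexp and 87 with slide, and the 4 of the interaction ranged from 0 to 9. By the brightest probe of each gene, small differences turned their sign. In the unknown tumors DLA-DRA became -0.028 without background-flagged spots, -0.019 with scan session, -0.097 with sex and -0.040 with age. DLA-DRB1 became 0.061 without background-flagged spots and 0.10 with slide, DLA-DMA 0.36 with slide, DLA-DQA1 -0.054, DLA-DQB1 -0.045 and CD74 -0.035 with sex, and DLA-DQB1 -0.57 without background-flagged spots, which left few values. Over all tumors CIITA became 0.16 without LM0. Between sexes DLA-DRA, DLA-DRB1 and CD74 became -0.083, -0.10 and -0.16 without class as a covariate. DLA-DRB1 became -0.0091 with 75th percentile scaling and -0.0032 with normexp. DLA-DQA1 became 0.010 with normexp, 0.010 without background-flagged spots and 0.13 with slide, and DLA-DQB1 0.24 with slide. None of these passed the test before or after. Among relations with DLA-DRA, keratinocyte markers reached r = -0.33 with slide means removed and turned to 0.16 within undifferentiated tumors. Mast cell markers turned to -0.029 within differentiated tumors and -0.0035 without LM0 and T47, and endothelial markers to 0.28 and 0.24. Within the 12 undifferentiated tumors the interferon gamma axis (0.55), costimulation (0.57), macrophage (0.26), B cell (0.35) and eosinophil (0.52) lists no longer passed. The cause was not tested. The small number of undifferentiated reference tumors limits the precision, and levels of DLA-DQB1 probe 5 and CIITA probe 3 near background have no order.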
